A study of Mus musculus with 6 samples.

Results

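Alveolar type I cell genes were compared in mouse lungs with and without *Igf1*, taken at embryonic day 18.5. The genes were *Aqp5*, *Pdpn*, *Ager*, *Rtkn2*, *Hopx*, *Cav1*, *Clic5*, *Emp2*, *Akap5* and *Lmo7*, and their probe sets were those to which the array annotation gives exactly 1 symbol, that of the gene. Of the 10 genes, 8 were measured by 11 of the 22626 mouse probe sets (3 for *Emp2*, 2 for *Hopx* and 1 for each of the others), and no probe set named for *Clic5* or *Akap5* alone was found. The *Igf1-/-* embryos were homozygous for a null allele of *Igf1* in all their cells, and the *Igf1+/+* embryos were the normal controls. Both came from matings of heterozygous parents of C57BL/6J background, and 3 lung RNA samples of each genotype were hybridized to 6 arrays. The methods describe delivery by C-section and a period of assisted breathing before the lungs were taken. Any difference in breathing between the genotypes cannot be told apart from genotype here and was not tested. The samples were whole lungs, so fewer cells of a type and less RNA of a gene per cell cannot be told apart. Whether each sample was 1 animal or a pool is not settled by the sources, and p-values measure the spread between these samples.

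Alveolar type I cells are thin, spread epithelial cells that cover most of the gas exchange surface of the lung and lie against the capillary endothelium. In the mouse they arise late in gestation, when distal epithelial progenitors form the terminal sacs, beside the cuboidal type II cells that make surfactant. Several of their genes are also used elsewhere in the lung, *Cav1* in endothelium and *Pdpn* in lymphatic endothelium and mesothelium.

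Sequence upstream of the transcription start was taken from RefSeq (GRCm38.p6), where 7 of the 8 measured genes matched with 10 start sites. The gene without a match was *Rtkn2*, so no window of it was searched. The 250 bases before the start are shown for *Aqp5*, which fell in *Igf1-/-* lungs, and for *Emp2* and *Ager*, both at levels among the brightest probe sets of the array. Capitals mark the GC box GGGCGG on either strand, the motif of SP1 and related factors. It was present upstream of 4 of the 10 member start sites (*Aqp5*, *Cav1*, *Emp2* and *Lmo7*, 1 site each) and of 32.7% of 32851 start sites of all genes.
Aqp5, chr15:99590778-99591027, plus strand: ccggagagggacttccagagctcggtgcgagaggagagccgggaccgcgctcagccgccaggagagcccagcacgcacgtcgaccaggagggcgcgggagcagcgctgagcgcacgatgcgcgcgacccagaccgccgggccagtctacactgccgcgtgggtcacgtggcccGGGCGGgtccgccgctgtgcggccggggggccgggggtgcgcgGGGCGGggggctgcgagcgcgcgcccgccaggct
Emp2, chr16:10313969-10314218, minus strand: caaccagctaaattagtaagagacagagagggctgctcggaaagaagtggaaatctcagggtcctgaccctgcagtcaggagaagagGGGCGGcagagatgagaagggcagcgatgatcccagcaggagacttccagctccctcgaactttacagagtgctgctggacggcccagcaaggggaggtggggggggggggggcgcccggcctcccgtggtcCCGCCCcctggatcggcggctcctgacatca
Ager, chr17:34597600-34597849, plus strand: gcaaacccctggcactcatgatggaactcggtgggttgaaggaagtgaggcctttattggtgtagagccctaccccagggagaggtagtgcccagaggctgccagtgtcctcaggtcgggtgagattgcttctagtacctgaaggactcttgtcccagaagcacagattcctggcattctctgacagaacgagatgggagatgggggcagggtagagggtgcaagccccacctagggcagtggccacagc
The *Aqp5* window held 2 GC boxes, the first bases of which lay 77 and 34 bases before the start, and 78.4% of its bases were G or C, against a median of 52.4% over all start sites. The motifs of TEAD factors (CATTCC), of NK2 homeodomain factors such as NKX2-1 (CAAGTG) and of AP-1 (TGANTCA) were searched on both strands and were in none of the 10 member windows, and in 12.6%, 11.6% and 6.75% of all windows. The TATA box (TATAAA) was in 1 member window, of *Cav1*, and in 12.4% of all. A match is a description of these letters only.

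Signal is given as RMA values (log2). Array medians lay between 6.85 and 6.89, and the correlation of any pair of arrays between 0.992 and 0.996. At the 3 probe sets of *Igf1*, the log2 fold change was −0.58, −0.51 and −0.42, and the values of both genotypes overlapped at 2 of them. No source used here says where they lie relative to the deleted part of *Igf1*, and they are therefore a weak check of the labels. Log2 fold changes are *Igf1-/-* minus *Igf1+/+* means, and a gene is said to have fallen or risen where limma gave an adjusted p (Benjamini-Hochberg, all mouse probe sets) under 0.10. The exact permutation test of 3 against 3 arrays cannot give a p under 0.1.

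All 11 probe sets of alveolar type I genes had a lower mean in *Igf1-/-* than in *Igf1+/+* lungs, as had 41.8% of all mouse probe sets. *Rtkn2* was 3.19-fold lower and *Aqp5* 1.97-fold lower (n = 3 per genotype), and these were the 2 genes that fell. The other 9 probe sets were between 1.13- and 1.29-fold lower and none of them passed. Thus 2 of 11 probe sets were called lower and none higher, against 0.393% lower, 0.164% higher and 0.557% in either direction over all probe sets. Under 0.20 it was 3 of 11, all lower, against 1.62% lower, 0.981% higher and 2.6% in either direction. An unadjusted p under 0.05 was found at 9 of 11, against 12.5% of all probe sets in either direction and 6.28% lower. The median log2 fold change of the 11 probe sets was −0.31 and that of all probe sets 0.03. The members were chosen with earlier results of these data known. These shares, and those of groups without overlap below, are therefore a description and not a test.

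*Aqp5* encodes the water channel of the apical membrane of type I cells. Its value was 9.01, 8.99 and 8.57 in the mutant replicates 1 to 3, against 9.90, 9.85 and 9.76 in the normal ones. The groups did not overlap, and the *Igf1-/-* values spread more (SD 0.25) than the *Igf1+/+* values (SD 0.07). The log2 fold change was −0.98 (SE 0.12, 95% confidence interval −1.25 to −0.71, adjusted p = 0.0173), the decrease of rank 31 among 22626. *Aqp5* passed with any of the 6 arrays left out, with an adjusted p between 0.0260 and 0.0825.

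*Rtkn2*, which encodes rhotekin 2, had values of 6.47, 7.27 and 6.47 in the mutant replicates 1 to 3, against 8.70, 7.96 and 8.55 in the normal ones. Replicate 2 was the highest of the *Igf1-/-* and the lowest of the *Igf1+/+* lungs, and the groups still did not overlap. It fell by 1.67 on the log2 scale (SE 0.24, 95% confidence interval −2.23 to −1.12, adjusted p = 0.0382), the decrease of rank 9 among all probe sets. The call was lost without *Igf1-/-* replicate 1 (adjusted p = 0.149), *Igf1-/-* replicate 3 (0.166) or *Igf1+/+* replicate 1 (0.140), and the lowest adjusted p with an array left out was 0.0237.

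**Figure D1:**
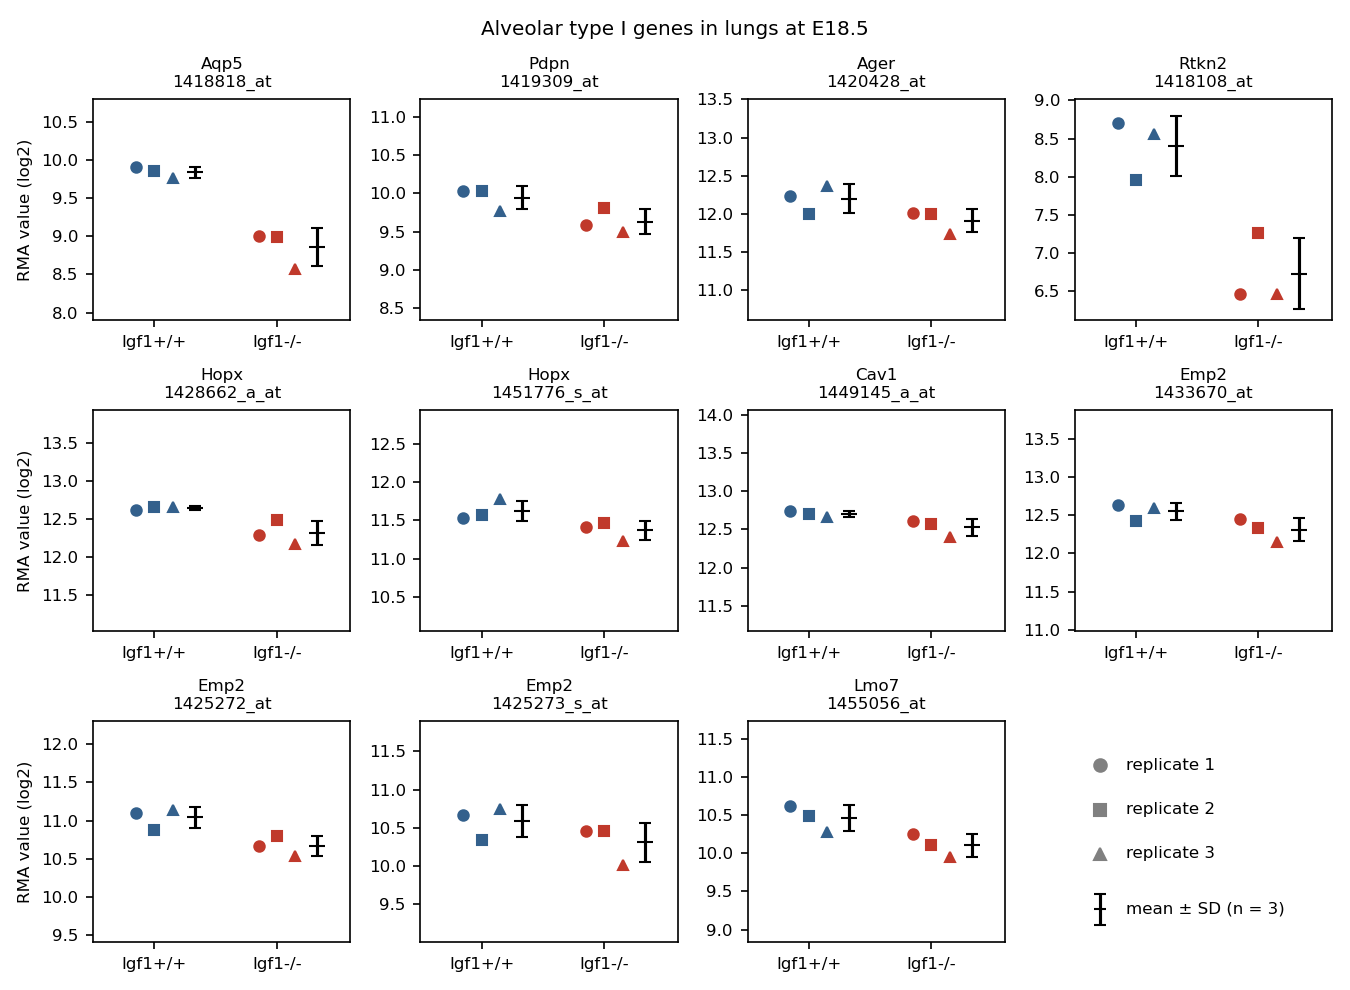
RMA values (log2 scale, vertical axes of equal span) of the 11 probe sets in the 3 *Igf1+/+* (blue) and 3 *Igf1-/-* (red) lungs, with symbols for the replicate and a bar for the mean ± SD. The genotypes are about 1 log2 unit apart for *Aqp5* (−0.98) and further apart for *Rtkn2* (−1.67), while the other probe sets differ by 0.37 at most.

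*Hopx* encodes an atypical homeodomain protein that does not bind DNA and marks the type I lineage. At its brighter probe set the value was 12.29, 12.48 and 12.18 in the mutant replicates 1 to 3, against 12.61, 12.66 and 12.65 in the normal ones. The normal lungs hardly differed (SD 0.02), and all mutant lungs were lower. The difference was −0.33 (SE 0.09, adjusted p = 0.211), and the second probe set, whose groups did not overlap either, had −0.25 (SE 0.10, adjusted p = 0.340).

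*Lmo7*, a LIM domain protein of cell junctions, had values of 10.25, 10.11 and 9.95 in the mutant replicates 1 to 3, against 10.62, 10.49 and 10.28 in the normal ones. The highest *Igf1-/-* value was just under the lowest *Igf1+/+* value. This was a difference of −0.36 (SE 0.11, adjusted p = 0.244), which passed without *Igf1+/+* replicate 3 (−0.45, adjusted p = 0.0932), and with the other arrays left out in turn the adjusted p reached 0.586.

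*Emp2*, a tetraspan membrane protein, was read by 3 probe sets, of which 2 were designed on the same sequence. At the probe set with the smallest p of the 3 the value was 10.66, 10.80 and 10.54 in the mutant replicates 1 to 3, against 11.10, 10.88 and 11.14 in the normal ones. These groups did not overlap, whereas at the other 2 probe sets they did, because *Igf1+/+* replicate 2 lay among the *Igf1-/-* lungs. From the brightest to the dimmest, the log2 fold change was −0.24, −0.37 and −0.28, and the adjusted p was 0.374, 0.193 and 0.466.

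*Pdpn*, also known as T1 alpha, encodes a mucin-type surface glycoprotein that binds ezrin and moesin. Its value was 9.58, 9.81 and 9.50 in the mutant replicates 1 to 3, against 10.03, 10.04 and 9.77 in the normal ones. *Igf1-/-* replicate 2 exceeded *Igf1+/+* replicate 3, so that the groups overlapped. The difference of the means was −0.31 (SE 0.11, 95% confidence interval −0.56 to −0.07, adjusted p = 0.297).

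*Ager* encodes RAGE, a receptor of the immunoglobulin superfamily found at the basolateral membrane of type I cells. Its value was 12.01, 11.998 and 11.74 in the mutant replicates 1 to 3, against 12.23, 11.99 and 12.37 in the normal ones. The groups overlapped through *Igf1+/+* replicate 2. Their means differed by −0.28 (SE 0.12, 95% confidence interval −0.55 to −0.02, adjusted p = 0.371).

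*Cav1*, the main coat protein of caveolae, had values of 12.61, 12.58 and 12.40 in the mutant replicates 1 to 3, against 12.74, 12.70 and 12.67 in the normal ones. The groups did not overlap, yet the difference was the smallest of the 11 probe sets (−0.17, SE 0.08, 95% confidence interval −0.36 to 0.01, adjusted p = 0.427). In all, the groups did not overlap at 7 of 11 probe sets, all lower in *Igf1-/-*, against 7.26% of all probe sets lower in this way, 10.8% higher and 18% either way.

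**Figure D2:**
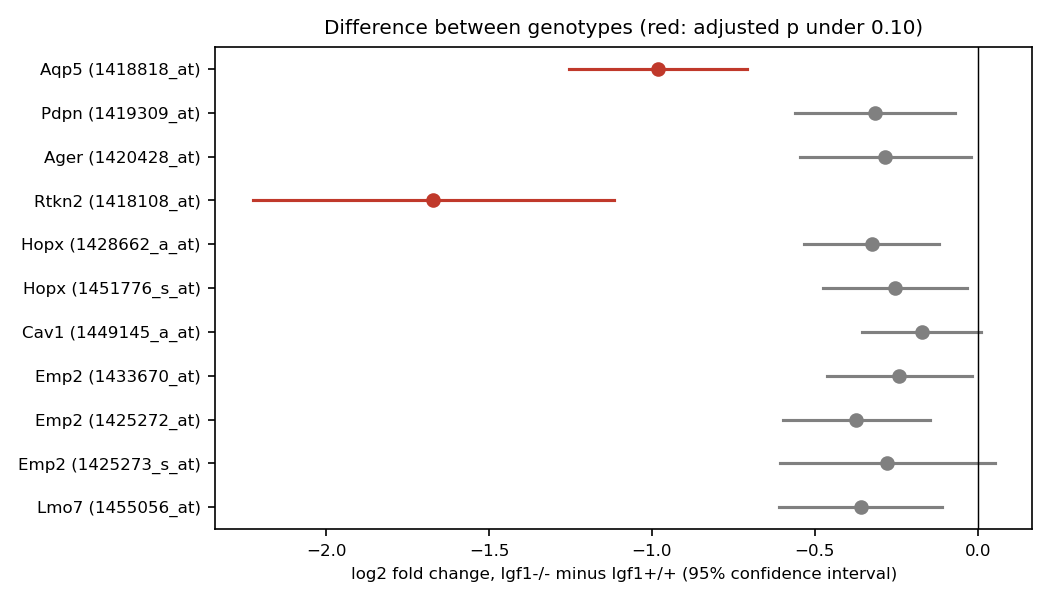
Log2 fold change (*Igf1-/-* minus *Igf1+/+*, points) with the 95% confidence interval from limma (lines) for the 11 probe sets. All points lie below 0, the intervals of *Cav1* (−0.36 to 0.01) and of the dimmest probe set of *Emp2* (−0.61 to 0.05) reach 0, and the red points are *Aqp5* and *Rtkn2*.

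The genes that fell were those with the lowest signal among the members. The mean value of *Rtkn2* lay at percentile 60.7 of all mouse probe sets and that of *Aqp5* at 86.8, while the others lay between 90.7 (*Pdpn*) and 99.2 (*Cav1*). A percentile ranks the signal of a probe set and not the number of transcripts, and whether the smaller differences of the bright probe sets have to do with their signal was not tested.

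The arrays did not contribute equally. *Igf1-/-* replicate 3 was the lowest of the 6 arrays at all 11 probe sets, at *Rtkn2* by less than the last printed digit from *Igf1-/-* replicate 1, whereas it was the lowest at 13.1% of all mouse probe sets and at 44.9% of those that fell. The median deviation of the 11 probe sets from their mean over the 6 arrays was −0.31 in this lung, −0.08 and −0.05 in *Igf1-/-* replicates 1 and 2, and 0.22, 0.08 and 0.28 in *Igf1+/+* replicates 1, 2 and 3. Without *Igf1-/-* replicate 3, all 11 means were still lower in *Igf1-/-*, with a median log2 fold change of −0.25. The log2 fold change of *Aqp5* was then −0.84 (adjusted p = 0.0265) and that of *Rtkn2* −1.54, and 1 of 11 probe sets passed (*Rtkn2*: adjusted p = 0.166).

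**Figure D3:**
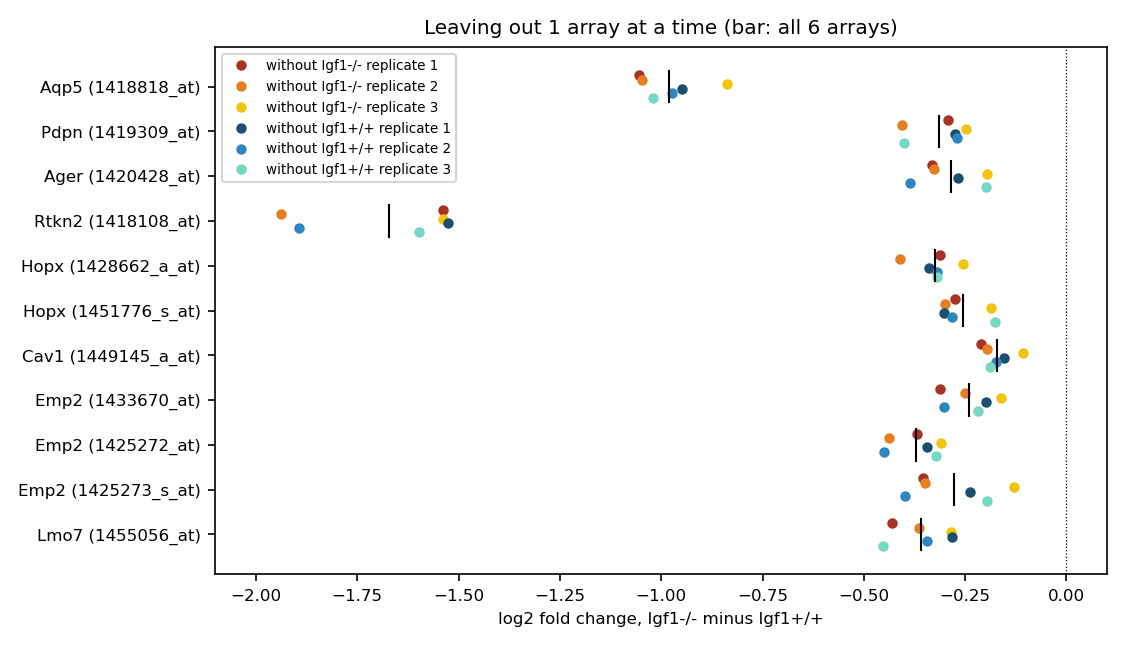
Log2 fold change of the 11 probe sets (*Igf1-/-* minus *Igf1+/+*) with each array left out in turn (coloured points) and with all 6 arrays (bars). No point reaches 0, and the points without *Igf1-/-* replicate 3 lie nearer to 0 than the bar at each probe set (−0.84 for *Aqp5*, −1.54 for *Rtkn2*).

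Of 24 other genes of alveolar type I cells, 22 were measured, and 3 fell and none rose. *Cdkn2b*, a cell cycle inhibitor, fell by 0.77 on the log2 scale (SE 0.12, adjusted p = 0.0534), with values of 8.42, 8.48 and 8.01 in the mutant replicates 1 to 3, against 9.13, 9.06 and 9.04 in the normal ones. *Icam1*, an adhesion molecule of type I and endothelial cells, fell by 0.54 (SE 0.09, adjusted p = 0.0665), and again no values overlapped. *Vegfa*, which type I cells make for the capillaries next to them, fell by 0.64 at its dimmer probe set (adjusted p = 0.0665) and had −0.44 at its brighter one (adjusted p = 0.122). At their brightest probe sets 16 of the 22 genes had a lower and 6 a higher mean, with a median log2 fold change of −0.27. Counts of lower and higher means and medians of the lists that follow are likewise at the brightest probe set of each gene.

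Others in that list did not pass. The basement membrane collagen chains *Col4a4* and *Col4a3*, named after their values were seen, had −0.68 (adjusted p = 0.110) and −0.57 (adjusted p = 0.236). *Scnn1g*, a subunit of the epithelial sodium channel, had −0.44 (adjusted p = 0.134), and *Anxa3*, a membrane-binding annexin, had −0.34 (adjusted p = 0.151), both also named after their values were seen. *Cldn18*, a claudin of alveolar tight junctions named in the same way, had 0.22 (adjusted p = 0.298) at its brighter probe set, where every mutant lung was higher, and 0.08 at the other. *Igf1-/-* replicate 3 was the lowest array for 13 of these 22 genes.

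None of the 11 measured regulators of alveolar epithelium, from NKX2-1 to the TEAD partners of YAP and TAZ, rose or fell (3 had an unadjusted p under 0.05 in limma). At their brightest probe sets 4 had a lower and 7 a higher mean, with a median log2 fold change of 0.06. *Wwtr1*, which encodes TAZ, had −0.22 (SE 0.08, adjusted p = 0.324) and its values did not overlap, with 10.88, 11.02 and 10.77 against 11.11, 11.10 and 11.13. *Foxa1*, a forkhead factor of lung epithelium, had 0.26 (SE 0.07, adjusted p = 0.229) and was higher in every *Igf1-/-* lung.

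No measured relative or partner of the members passed. Of 7 measured caveola components, 6 had a lower mean and 3 an unadjusted p under 0.05 in limma. *Cavin2*, a caveola coat protein, had −0.28 (SE 0.08, adjusted p = 0.224) and *Cav2*, the partner of *Cav1*, had −0.32 (SE 0.12, adjusted p = 0.332). The dimmer probe set of *Cav2*, with a mean signal at percentile 27.7, had 0.23 (adjusted p = 0.436). *Cavin4*, the caveola protein of muscle, which was named after its values were seen, had −0.999 (adjusted p = 0.104).

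Among 7 other aquaporins the mean was lower for 1, *Aqp1*, the water channel of endothelium and red cells, with −0.27 (SE 0.11, adjusted p = 0.376). *Aqp4*, a water channel of airway epithelium, had 0.15 (adjusted p = 0.564) at its brighter probe set and −0.15 (adjusted p = 0.829) at its dimmer one. Of 3 other measured genes of the CLIC family, to which *Clic5* belongs, 2 had a lower and 1 a higher mean. *Clic4* had −0.09 (adjusted p = 0.651) and *Clic3* −0.19 (adjusted p = 0.381). *Clic1*, named after its values were seen, had 0.10 (adjusted p = 0.663). *Pmp22*, of the same family as *Emp2*, had −0.24 (adjusted p = 0.374) and *Emp1* −0.12 (adjusted p = 0.607). *Emp3* of that family, named after its values were seen, had 0.08 (adjusted p = 0.724).

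Of 6 podoplanin partners 5 had a lower and 1 a higher mean. *Msn* and *Rdx*, which link membrane proteins to actin, had −0.12 (adjusted p = 0.647) and −0.18 (adjusted p = 0.641). *Cd44*, named after its values were seen, had 0.20 (adjusted p = 0.344) and was higher in every mutant lung. At their brightest probe sets, all 5 measured RAGE ligands and effectors had a higher mean in *Igf1-/-* and none rose, while the dimmer probe set of *S100b*, named after its values were seen, had −0.11. *App* had 0.03 (adjusted p = 0.909) and *Diaph1*, which binds the cytoplasmic tail of RAGE, had 0.14 (adjusted p = 0.582). The calgranulins *S100a8* and *S100a9*, made mainly by neutrophils and named after their values were seen, had 0.63 and 0.68 (adjusted p = 0.110 for both).

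Markers of other cells did not share one direction with the type I genes. Of 9 measured type II markers none rose or fell (4 had an unadjusted p under 0.05 in limma), 2 had a lower and 7 a higher mean, and the median log2 fold change was 0.10. *Sftpc*, the surfactant protein specific to type II cells, had 14.43, 14.47 and 14.40 in the mutant replicates 1 to 3, against 14.37, 14.37 and 14.41 in the normal ones (log2 fold change 0.05, SE 0.07). Its mean signal lay at percentile 99.996, and the highest value of any probe set was 14.56. Whether so high a signal limits the difference was not tested. *Slc34a2*, the phosphate transporter of type II cells, had 0.09 (SE 0.09). Not all of the list was so flat. *Sftpd* and *Napsa*, named after their values were seen, had −0.42 (adjusted p = 0.288) and 0.41 (adjusted p = 0.214). The groups did not overlap at either of them. The difference between the type I and type II lists was not tested.

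Pan-epithelial markers had 5 lower and 7 higher means of 12, a median of 0.09 and no call (4 with an unadjusted p under 0.05 in limma). *Cldn3* had 0.25 (adjusted p = 0.423) and the keratin *Krt8* −0.17 (adjusted p = 0.412). Larger differences went both ways. *Krt18* and *Cldn7*, named after their values were seen, had −0.36 (adjusted p = 0.103) and 0.47 (adjusted p = 0.106), each without overlap of the groups. The mean value of these 12 genes per array lay between 9.42 and 9.53 in the *Igf1-/-* lungs and between 9.37 and 9.52 in the *Igf1+/+* lungs, and that of the 9 type II markers between 12.23 and 12.46 and between 12.20 and 12.38. The same mean over the 8 type I genes lay between 10.37 and 10.70 in *Igf1-/-* and between 11.01 and 11.18 in *Igf1+/+*. The genes did not share equally in this, with −1.67 at *Rtkn2* and −0.98 at *Aqp5*. The others lay between −0.36 (*Lmo7*) and −0.17 (*Cav1*). Distal tip progenitor markers had 2 lower and 4 higher means of 6 and no call, with *Id2* at 0.09 and *Bmp4* at −0.11. The dimmer probe sets of *Id2* had 0.25 (adjusted p = 0.233) and −0.62 (adjusted p = 0.491).

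Cells that share *Cav1* and *Pdpn* with type I cells also had lower values in part. Of 13 endothelial markers 11 had a lower mean, none passed (4 with an unadjusted p under 0.05 in limma), and their median log2 fold change was −0.15. *Cldn5* had −0.18 (adjusted p = 0.583) and *Ramp2* −0.15 (adjusted p = 0.531). *Kdr* and *Cdh5*, named after their values were seen, had −0.26 (adjusted p = 0.267) and −0.24 (adjusted p = 0.319) without overlap of the groups. The dimmer probe set of *Cdh5* had 0.0085. The mean value of the list per array lay between 9.75 and 9.94 in the *Igf1-/-* lungs and between 9.88 and 10.1 in the *Igf1+/+* lungs, and *Igf1-/-* replicate 3 was the lowest array for 9 of the 13 genes. *Lyve1*, a lymphatic receptor, fell by 0.55 on the log2 scale (adjusted p = 0.0910) and by 0.58 at its dimmer probe set, while *Flt4* had −0.07 and *Prox1*, the defining transcription factor of lymphatic endothelium, which was named after its values were seen, had 0.0047, its mean signal being at percentile 6.88. The median of these 3 genes was −0.07, and *Lyve1* alone set apart their mean per array, which lay between 7.41 and 7.497 in *Igf1-/-* and between 7.62 and 7.71 in *Igf1+/+*. *Msln*, of mesothelium, fell by 0.65 (SE 0.10, adjusted p = 0.0389), whereas *Upk3b*, also of mesothelium, had 0.05. Of the 3 mesothelial genes 1 had a lower and 2 a higher mean, with a median of 0.05, so *Msln* alone set apart their mean per array, which lay between 7.81 and 8.03 in *Igf1-/-* and between 8.07 and 8.16 in *Igf1+/+*. The part of these cells in the values of *Cav1* and *Pdpn* was not tested.

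In the airways, *Scgb3a1*, a secretoglobin, fell by 1.40 (SE 0.17, adjusted p = 0.0161), while the club cell genes *Scgb3a2* and *Scgb1a1* had 0.21 and −0.26 and did not pass. Of the 5 club cell markers 2 had a lower and 3 a higher mean, and *Cyp2f2*, a cytochrome P450 of club cells named after its values were seen, had 0.51 (SE 0.10, adjusted p = 0.106) and was higher in every mutant lung. All 4 measured ciliated cell markers had a higher mean, with no overlap between the groups, an unadjusted p under 0.05 in limma and a median of 0.38, and none rose at the adjusted threshold, with *Rsph1* at 0.46 (adjusted p = 0.248) and *Foxj1*, the master regulator of motile cilia, at 0.25 (adjusted p = 0.270). Of 7 mesenchymal markers none passed, and *Col3a1* and *Tcf21* had 0.04 and −0.09.

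**Figure D4:**
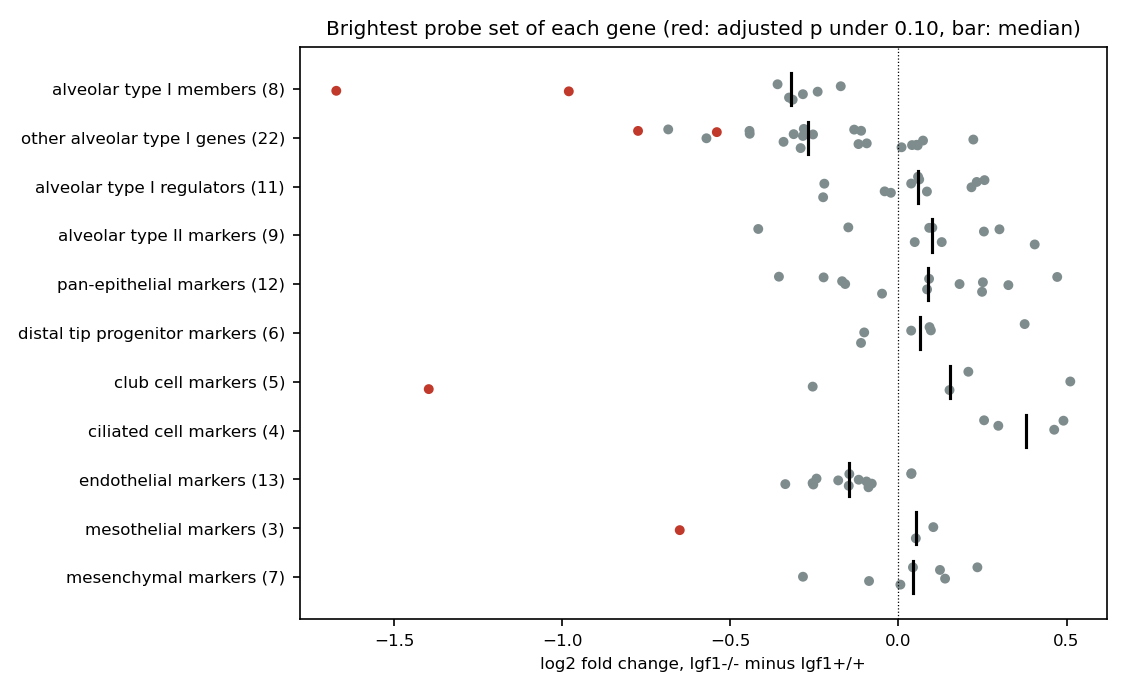
Log2 fold change (*Igf1-/-* minus *Igf1+/+*) of the brightest probe set of each measured gene (points, red at an adjusted p under 0.10) by gene list, with the number of genes in brackets and a bar for the median. The medians of the type I members (−0.32) and of the other type I genes (−0.27) lie below those of the type II (0.10), pan-epithelial (0.09) and endothelial (−0.15) markers.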

How the data were processed

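Lung RNA samples, 3 *Igf1-/-* and 3 *Igf1+/+*, were hybridized to Affymetrix GeneChip mouse expression arrays. Values were deposited on a log2 scale, as the authors obtained them by RMA (background correction, quantile normalization, median-polish summary) over 12 arrays, 6 of lung and 6 of cochlea. No RMA version is stated, and the cochlear values were not used. Genotype and replicate number came from the sample labels.

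Of 22690 probe sets, 64 controls were left out. Annotation gives 1 symbol to 20380 of the others. Genotype was the single term of a linear model of the 6 arrays in limma 3.58.1 (R 4.3.3), with empirical Bayes variances and Benjamini-Hochberg adjustment over 22626 probe sets. The code was first tested on simulated data. Array values carry no read depth, and their number limits the precision.

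The members and the gene lists were chosen with earlier results of these data known. All probe sets of the members are given. Of each other list, up to 4 genes with the largest change among those past 0.10 are named and, where fewer than 2 passed, the 2 with the highest mean, and any other gene is said to be named after its values were seen. Alternatives were quantile normalization, median centring, a replicate block, a filter on dim probe sets, a variance trend with robust estimates, and array weights. Others were the SAM statistic of the methods, a comparison of means without moderation, controls kept, other thresholds, and leaving out each array.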

Additional observations from a re-analysis of the deposited data

How the results depend on the processing

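The mean was lower in *Igf1-/-* at all 11 probe sets under each alternative of the fit, including each array left out. Only quantile normalization, median centring, array weights and left-out arrays could change a direction. The other alternatives of the fit leave each difference of means as it is. The count of alveolar type I probe sets (and genes) past an adjusted p of 0.10 was 2, and it was 3 with array weights and 0 with a comparison of means without moderation, where the adjusted p was 0.367 for *Aqp5* and 0.389 for *Rtkn2* and 4 of 11 probe sets (2299 of all) had an unadjusted p under 0.05. It lay between 1 and 3 with 1 array left out, and was 1 when replicate 1 of either genotype or *Igf1-/-* replicate 3 was left out. Over all mouse probe sets the count was 126. It was 204 with a variance trend and robust estimates together, 628 with array weights and 1 without moderation. At a threshold of 0.05 it was 54 and at one of 0.20 it was 588. With 1 array left out it lay between 45 and 710, the lowest without *Igf1-/-* replicate 3 and the highest without *Igf1+/+* replicate 3. Of 165 values of the 11 probe sets under the alternatives, 5 lost the call and 2 gained it. None changed direction, which many of these values could not do, as said above.

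The replicate numbers do not mark shared animals in the labels, and the deviations of same-numbered arrays from their group means correlated at −0.04, −0.23 and −0.14. With the replicate number as a block, the count over all probe sets was 138 and that of the members 2. *Rtkn2* then had an adjusted p of 0.0865. The remaining causes of these differences between settings were not tested.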
